A study of Mus musculus with 6 samples.

Results

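The genes described here encode the Ral GTPases, the exchange factors that activate them and the subunits of the complexes that inactivate them, in mouse embryoid bodies (EBs) with and without Tnfaip2. The members were chosen by gene symbol, as Rala, Ralb, Ralgds, Rgl1, Rgl2, Rgl3, Ralgapa1, Ralgapa2 and Ralgapb, and all 9 were found among the 52636 genes of the deposited count table. All 9 also passed the filter on low counts.

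EBs are aggregates of embryonic stem cells (ESCs) that begin to form the germ layers when factors that keep them pluripotent are withdrawn. RNA-seq was performed on 3 WT samples from the parental ESC line E14 and on 3 Tnfaip2-/- samples from 1 CRISPR-edited clone of the same line. In both groups, EBs were formed in hanging drops for 3 days and then kept under differentiation conditions for another 3 days, and the volume and cell number of the drops differ between the sample labels and the methods. The WT samples held 22987433, 22489903 and 23804489 counts and the Tnfaip2-/- samples 22480962, 21765931 and 21986960 counts. As each genotype is 1 line, p-values measure only the spread between replicate samples of that line, and genotype and clone cannot be told apart. This spread was small. Squared differences between samples of 1 genotype were on average between 1.40 and 2.09 times those from counting alone, over genes with a mean of at least 50 counts.

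Ral proteins are small GTPases of the Ras superfamily that switch between an inactive GDP-bound and an active GTP-bound state and act on vesicle tethering, endocytosis and the cytoskeleton. Exchange factors (RalGEFs) of the Ralgds family bind active Ras and load Ral with GTP, which links Ras to Ral. The RalGAP complexes, made of a catalytic alpha subunit and a shared beta subunit, speed up GTP hydrolysis and switch Ral off. Active Ral binds the exocyst, the complex that tethers secretory vesicles to the plasma membrane.

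The edited gene was examined first. For Tnfaip2, the WT samples held 7, 4 and 7 counts, against 0, 2 and 2 in those of the knockout. Each Tnfaip2-/- sample was below each WT sample, although the gene was under the expression filter in this table. The counts of each group were added up, 18 against 4, and divided by the total counts of the group, without TMM factors. The ratio of Tnfaip2-/- to WT was then 0.232, with an exact 95% counting interval from 0.0572 to 0.706. This interval covers counting error only, and of the gene's 51-base windows, the length of a read, 4.51% also occur in an antisense gene, Gm40578.

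Of the 9 Ral family genes, 4 were higher and 3 were lower in Tnfaip2-/- EBs, and 2 were not called. A gene was called when edgeR's quasi-likelihood test with Benjamini-Hochberg adjustment gave it an adjusted p under 0.05. Across all 17849 genes tested, 67.7% were called, 34.0% higher and 33.7% lower, so that 7 of 9 is close to the share of genes in general. The median log2 fold change was 0.08 over the 9 genes and 0.00 over all genes tested, and the median size of the change was 0.42 and 0.30. Both GTPase genes and the exchange factor gene Ralgds were higher, whereas the exchange factor genes Rgl2 and Rgl3 and the GAP subunit gene Ralgapa1 were lower. Ralgapb, the fourth gene called higher, changed little and lost its call under most other settings. Whether the groups were separate is stated below for single genes, without the share over all genes, which was not counted. In bulk RNA, fewer cells of a type and less RNA per cell cannot be told apart.

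**Figure D1:**
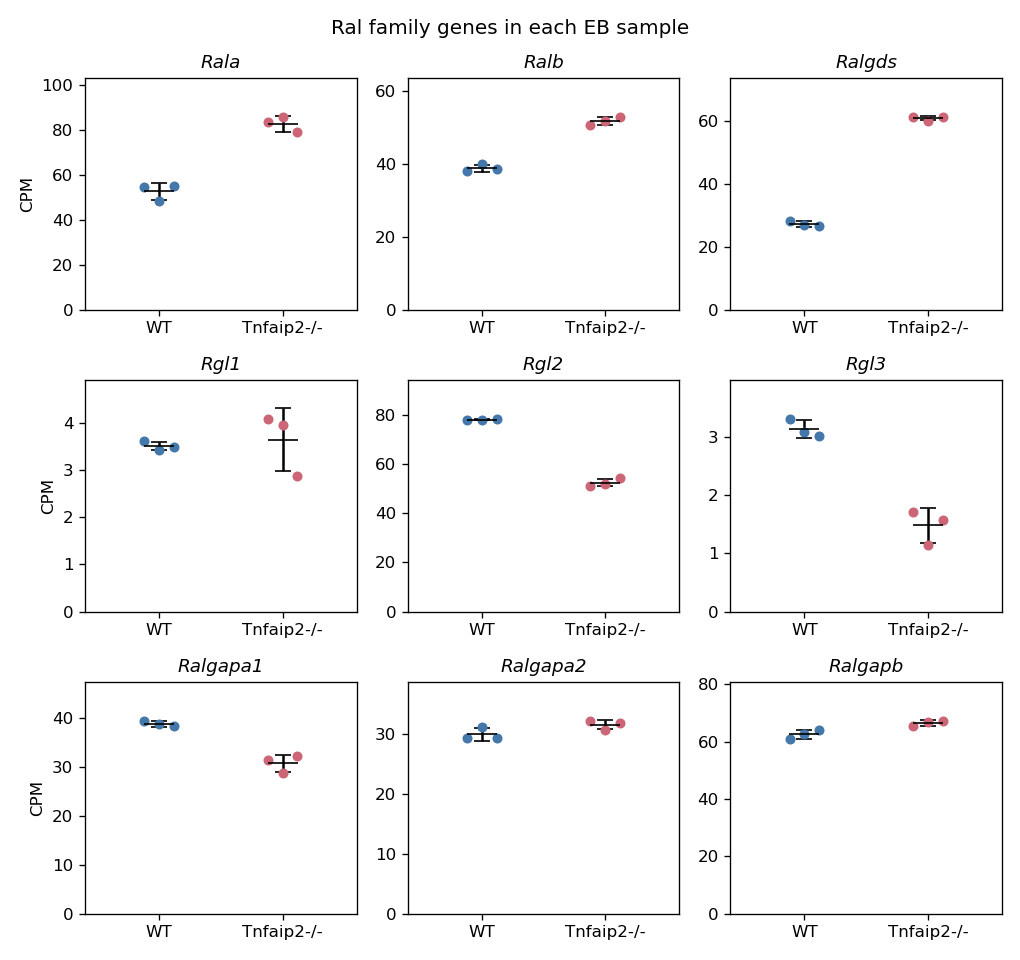
Counts per 1000000 counts (CPM, vertical axes, each starting at 0) of the 9 Ral family genes in 3 WT and 3 Tnfaip2-/- EB samples. Points are samples, and bars are the mean and SD. The groups overlap for Rgl1 and Ralgapa2 and are separate for the other genes. The share of all genes tested with separate groups was not counted, and 67.7% of them were called.

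The GTPases RALA and RALB are close relatives, and their coding sequences are of equal length, with 621 bases including the stop codon and 206 codons before it. In a global alignment, 458 of 618 paired bases were identical (74.1%). No 51-base window was shared between the coding sequences, and their longest identical run was 17 bases. Neither gene shared such a window with an annotated transcript of any other gene, so that reads of this length can be assigned to Rala or Ralb. The proteins differ most towards their end, where a variable stretch precedes the CAAX box, the signal for the lipid anchor that holds Ral at membranes. The last 78 coding bases are shown because they separate the genes, with identity falling to 61.3% of paired bases in the same alignment. They lie in exon 5 on the reverse strand of both genes in GRCm38, at chr13:17882379-17882456 for Rala and chr1:119471706-119471783 for Ralb. The 15 capitals mark the codons of the CAAX box and the stop codon:
Rala: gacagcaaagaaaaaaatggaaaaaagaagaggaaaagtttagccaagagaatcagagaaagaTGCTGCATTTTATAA
Ralb: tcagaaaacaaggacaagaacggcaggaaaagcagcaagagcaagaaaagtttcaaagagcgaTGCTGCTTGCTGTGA

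Rala (ENSMUSG00000008859, chromosome 13, 17880571 to 17944239), known for its part in exocyst-dependent delivery of vesicles, was at 54.7, 48.2 and 55.1 CPM in the WT samples and at 83.4, 85.8 and 79 CPM in the Tnfaip2-/- samples. The groups did not overlap. The log2 fold change was 0.65 (SE 0.0417), a 1.57-fold higher level, with an adjusted p of 1.59e-18 in edgeR's quasi-likelihood test. Of all genes tested, 77.7% had a smaller change.

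Ralb (ENSMUSG00000004451, chromosome 1, 119470305 to 119504794) was at 38.1, 39.9 and 38.6 CPM in WT EBs and at 50.8, 51.7 and 52.9 CPM in Tnfaip2-/- EBs. It too was higher in every Tnfaip2-/- sample than in any WT sample. Its log2 fold change of 0.42 (SE 0.0427) was smaller than that of Rala, and the adjusted p was 7.85e-12 in edgeR's quasi-likelihood test. The difference between the fold changes of both genes was not tested.

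Levels of different genes were compared as CPM per kb of exon, where the length is the union of all exons in a later annotation release than the authors used for counting. On this scale Rala was the more abundant GTPase transcript, at 18.2 ± 1.33 in WT EBs and 28.5 ± 1.19 in Tnfaip2-/- EBs (SD, n = 3), against 7.88 ± 0.193 and 10.5 ± 0.218 for Ralb. The sum of both was 26.1 ± 1.15 in WT EBs and 39.1 ± 1.05 CPM per kb in Tnfaip2-/- EBs. The share of Ralb in this sum was 29%, 32.7% and 29.2% in the WT samples and 26.4%, 26.2% and 28.3% in the Tnfaip2-/- samples. The groups were separate by a small margin, and the mean was 30.3% ± 2.1 against 26.9% ± 1.15 (SD, n = 3). Without WT replicate 2, the highest sample, the difference between the means moved from -3.39 to -2.18 percentage points. The share depends on the length assumed for Ralb, whose exon union of 4930 bases exceeds its longest annotated transcript of 2742 bases. With the longest transcript of each gene in place of the exon union, the mean share was 42% in WT EBs and 38.1% in Tnfaip2-/- EBs.

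Among the Ras-binding exchange factors, Ralgds and Rgl2 carried most of the transcripts and changed in opposite directions. Ralgds (ENSMUSG00000026821, chromosome 2, 28513125 to 28553081), the founding member of the family, was at 28.3, 26.9 and 26.5 CPM in the WT samples and at 61.3, 60 and 61.3 CPM in the Tnfaip2-/- samples. All Tnfaip2-/- samples were above all WT samples, with little spread within either group. With a log2 fold change of 1.16 (SE 0.0444), a 2.24-fold higher level, it had the largest change of the 9 genes, at an adjusted p of 5.9e-27 in edgeR's quasi-likelihood test. Rgl3 was close in size, and without Tnfaip2-/- replicate 1 the order turned, with 1.15 for Ralgds and -1.20 for Rgl3 on the log2 scale. The change was larger than that of 90.5% of all genes tested.

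Rgl2 (ENSMUSG00000041354, chromosome 17, 33929543 to 33937687), which encodes a Ras-binding exchange factor also known as RLF, was at 77.8, 77.8 and 78.2 CPM in WT EBs and at 51.1, 51.9 and 54.1 CPM in Tnfaip2-/- EBs. The groups were separate, and the WT samples differed little among themselves. The log2 fold change was -0.57 (SE 0.0375), with an adjusted p of 3.02e-18 in edgeR's quasi-likelihood test. The 791 tested genes of chromosome 17 had a median log2 fold change of -0.25, in the same direction as Rgl2, and its part in the result was not tested.

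Rgl3 and Rgl1 encode the other Ras-binding exchange factors and were both low. Rgl3 (ENSMUSG00000040146, chromosome 9, 21968711 to 21989446) gave 75, 69 and 71 counts in WT EBs and 39, 25 and 35 counts in Tnfaip2-/- EBs, or 3.31, 3.08 and 3.02 CPM against 1.72, 1.14 and 1.58 CPM. Every Tnfaip2-/- sample was below every WT sample. Its log2 fold change was -1.08 (SE 0.172), and the adjusted p was 4.17e-07 in edgeR's quasi-likelihood test.

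Rgl1 (ENSMUSG00000026482, chromosome 1, 152516760 to 152766351) had 82, 77 and 82 counts in WT EBs and 93, 87 and 64 counts in Tnfaip2-/- EBs. The WT samples lay within the range of the Tnfaip2-/- samples, of which replicate 3 was the lowest. Its log2 fold change was 0.06, with a 95% interval from -0.22 to 0.33 and an adjusted p of 0.737 in edgeR's quasi-likelihood test. Without Tnfaip2-/- replicate 1 or replicate 2 the sign turned, to -0.04 and -0.01, so that no direction can be given for Rgl1.

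**Figure D2:**
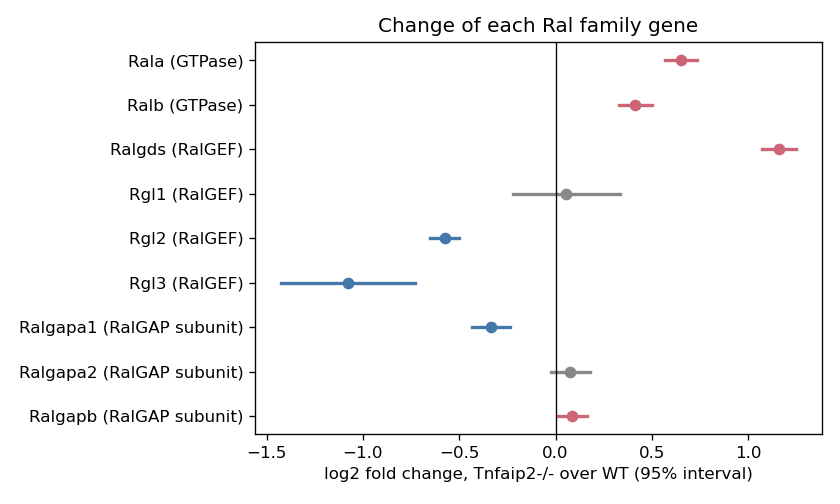
Log2 fold change of each Ral family gene, Tnfaip2-/- over WT (horizontal axis), with its 95% interval from edgeR's fit to 3 samples per group. Red marks genes called higher, blue genes called lower and grey genes not called. Ralgds lies farthest above 0, at 1.16, and Rgl3 farthest below, at -1.08.

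The make-up of the RalGEF transcripts was described further after these values had been seen, as shares of the sum of Ralgds, Rgl1, Rgl2 and Rgl3 per length. This RalGEF sum covers the Ras-binding exchange factors only. Ralgps1 and Ralgps2, exchange factors described below, are not in it. Ralgps1 was at means of 1.965 in WT and 2.837 CPM per kb in Tnfaip2-/- EBs, and Ralgps2 at 4.894 and 4.216. Rgl2 made up 73.9%, 74.9% and 75.2% of this sum in the WT samples and 50.2%, 51.4% and 52.1% in the Tnfaip2-/- samples. Ralgds made up 20.2%, 19.4% and 19.1% in WT EBs and 45.1%, 44.7% and 44.3% in Tnfaip2-/- EBs. The groups were far apart for both shares compared with the spread between replicates. Per length, the ratio of Ralgds to Rgl2 was 0.262 ± 0.00962 in WT EBs and 0.873 ± 0.0248 in Tnfaip2-/- EBs (SD, n = 3). Rgl2 was therefore the most abundant exchange factor transcript of the family in both genotypes, with Ralgds close behind it in Tnfaip2-/- EBs. With the longest transcript as the length, the share of Rgl2 was 75.5% and 51.8%, and that of Ralgds was 19.4% and 44.4%.

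The sum itself differed much less than Ralgds and Rgl2, its main parts. It was 22.6 ± 0.174 CPM per kb in WT EBs and 22.1 ± 0.326 CPM per kb in Tnfaip2-/- EBs (SD, n = 3). The highest Tnfaip2-/- sample, at 22.47, lay just under the lowest WT samples, at 22.49. No test was made of this sum.

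**Figure D3:**
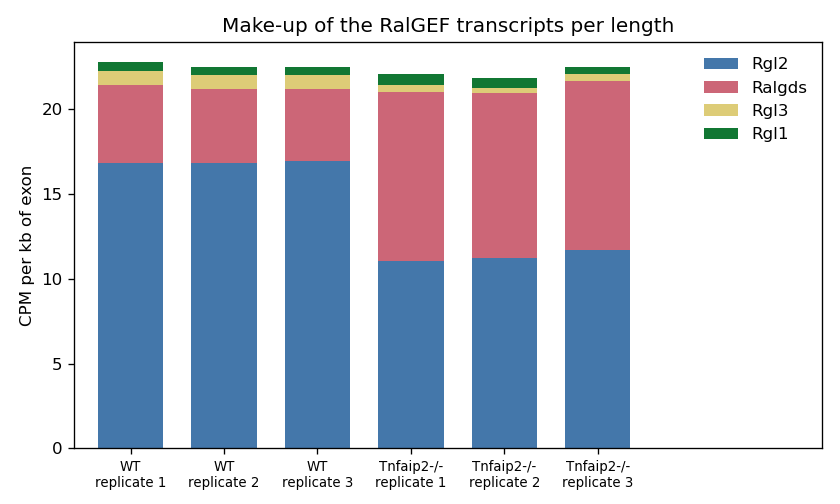
CPM per kb of exon (vertical axis) of the Ras-binding exchange factor genes, stacked for each of the 6 EB samples. Total heights are alike, at means of 22.6 in WT and 22.1 in Tnfaip2-/- EBs, while the Ralgds part grows from a mean of 4.42 to 9.88 and the Rgl2 part shrinks from 16.9 to 11.3.

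The genes with the pattern most like that of Ralgds, by Euclidean distance over the 6 samples of log2 CPM minus the WT mean, were Gas6 (distance 0.0867), Loxl1 (0.0952) and Sqstm1 (0.103). Gas6 encodes a ligand of TAM receptors, Loxl1 an enzyme that cross-links elastin and Sqstm1 the autophagy receptor p62. Sqstm1, for example, was at 206.4, 208.2 and 203.4 CPM in the WT samples and at 439.6, 451.7 and 453.3 CPM in the Tnfaip2-/- samples. As the spread within groups was small, this distance mainly picks genes with a change of the same size. The log2 fold changes were 1.162 for Gas6, 1.174 for Loxl1 and 1.122 for Sqstm1, beside 1.161 for Ralgds. A link between these genes and Ralgds was not tested. They lie on chromosomes 8, 9 and 11, and Ralgds lies on chromosome 2.

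Of the RalGAP subunit genes, Ralgapa1 changed most. Ralgapa1 (ENSMUSG00000021027, chromosome 12, 55602896 to 55821167), which encodes a catalytic alpha subunit, was at 39.3, 38.6 and 38.2 CPM in WT EBs and at 31.3, 28.7 and 32.1 CPM in Tnfaip2-/- EBs. The groups were separate. The log2 fold change was -0.33 (SE 0.0487), with an adjusted p of 5.81e-08 in edgeR's quasi-likelihood test, and it no longer passed when tested against a 1.2-fold change (adjusted p = 0.0581, edgeR). The 703 tested genes of chromosome 12, which also carries Tnfaip2, had a median log2 fold change of -0.19, and its part in the result was not tested. Of the 51-base windows of Ralgapa1, 3.21% also occur in the pseudogene Gm9812 on the opposite strand of the same place.

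Ralgapa2 (ENSMUSG00000037110, chromosome 2, 146239879 to 146512344), the gene of the alternative alpha subunit, was at 29.3, 31.2 and 29.3 CPM in the WT samples and at 32.2, 30.7 and 31.7 CPM in the Tnfaip2-/- samples. The groups overlapped. Its log2 fold change was 0.08, with a 95% interval from -0.02 to 0.18 and an adjusted p of 0.174 in edgeR's quasi-likelihood test.

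Ralgapb (ENSMUSG00000027652, chromosome 2, 158409848 to 158499253), the gene of the beta subunit that both alpha subunits need, was at 61, 62.6 and 64 CPM in WT EBs and at 65.4, 66.7 and 67.2 CPM in Tnfaip2-/- EBs. The Tnfaip2-/- samples were all higher, by little more than the spread within a group. This gave a log2 fold change of 0.09 (SE 0.0374), with an adjusted p of 0.036 in edgeR's quasi-likelihood test. The call was lost with DESeq2 (adjusted p = 0.195), without a filter on low counts (0.143, edgeR), with a replicate block (0.0625, edgeR), against a 1.2-fold change (1, edgeR) and on leaving out any of 4 samples. The 1411 tested genes of chromosome 2, where Ralgapb, Ralgapa2 and Ralgds lie, had a median log2 fold change of 0.09, about the size of the changes of Ralgapb and Ralgapa2. The part of this chromosome in the results was not tested. For the chromosomes of Rala, Ralb, Rgl1 and Rgl3 the median was between -0.01 and 0.09.

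Per length, Ralgapa1 was the more abundant alpha subunit transcript in each sample. Its share of the alpha subunit transcripts was 67.2%, 65.4% and 66.6% in the WT samples and 59.8%, 58.8% and 60.7% in the Tnfaip2-/- samples. The groups did not overlap, and the mean was 66.4% ± 0.934 against 59.7% ± 0.952 (SD, n = 3). With the longest transcript as the length the share was 61.7% and 54.8%.

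The ratio of the RalGEF sum to Ralgapb per length was 4.86, 4.67 and 4.57 in WT EBs and 4.38, 4.25 and 4.34 in Tnfaip2-/- EBs. The groups were separate but near each other, with means of 4.7 ± 0.146 and 4.32 ± 0.0677 (SD, n = 3). This is a ratio of transcripts and not of active proteins, and its direction holds for the beta subunit only. The catalytic alpha subunits are not in it, and no ratio to them was computed. Ralgapa1 was at means of 3.14 in WT and 2.49 CPM per kb in Tnfaip2-/- EBs, and Ralgapa2 at 1.59 and 1.68.

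In the order of levels per length, Rala and Rgl2 stood at the top in WT EBs, at 18.2 and 16.9 CPM per kb, and their samples overlapped. Ralb, Ralgapb, Ralgds, Ralgapa1, Ralgapa2, Rgl3 and Rgl1 followed without overlap between neighbours, from 7.88 down to 0.509 CPM per kb. In Tnfaip2-/- EBs Rala was first at 28.5, and Rgl2, Ralb and Ralgds came next at 11.3, 10.5 and 9.88 CPM per kb. Ralgapb, Ralgapa1 and Ralgapa2 followed, and Rgl1 and Rgl3 were last and overlapped, at 0.529 and 0.377. The top places and this overlap depended on the length used. With the longest transcript as the length, Rgl2 was first in WT EBs, ahead of Rala, and Ralb was second in Tnfaip2-/- EBs, ahead of Rgl2. On that length Rgl1 and Rgl3 were again last in Tnfaip2-/- EBs but did not overlap, at 0.717 and 0.44 CPM per kb.

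The other genes of the pathway were grouped into lists by role. Counted once each, 47 genes were on these lists and all were tested, of which 22 were higher, 13 lower and 12 not called, so that 35 of 47 passed, beside 67.7% of all genes tested (34.0% higher and 33.7% lower). Their median log2 fold change was 0.11, against 0.00 over all genes tested.

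**Figure D4:**
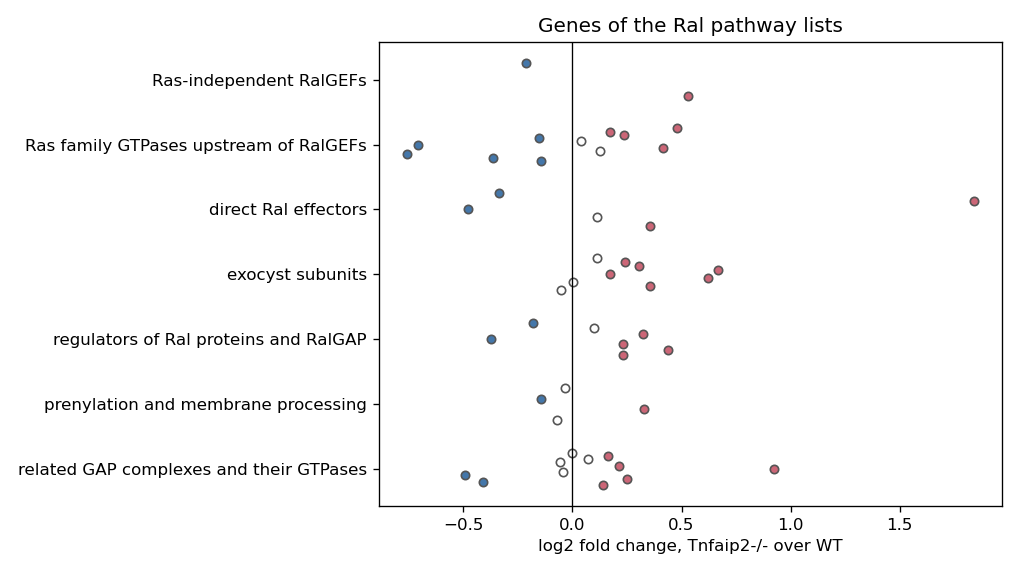
Log2 fold change, Tnfaip2-/- over WT (horizontal axis), of each gene on the Ral pathway lists (vertical axis). Red points were called higher, blue points lower, and open points were not called. The exocyst list holds 6 genes called higher and 0 called lower of 9, where 34.0% of all genes tested were called higher, and the farthest point, at 1.84, is Plcd1 among the direct effectors.

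Exchange factors of the RalGPS type have no Ras-binding domain and are anchored through lipids. Ralgps1 was at 14.1, 16.2 and 14.9 CPM in WT EBs and at 22.5, 20.5 and 22.2 CPM in Tnfaip2-/- EBs. All Tnfaip2-/- samples were higher, with a log2 fold change of 0.53 and an adjusted p of 8.22e-10 in edgeR's quasi-likelihood test. Ralgps2 was at 58.6, 59.7 and 59 CPM in WT EBs and at 51.9, 52 and 48.9 CPM in Tnfaip2-/- EBs. It was lower in each Tnfaip2-/- sample, with a log2 fold change of -0.21 and an adjusted p of 6.75e-06 in edgeR's quasi-likelihood test.

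Of the 11 Ras and Rap GTPase genes upstream, 4 were higher, 5 lower and 2 not called, where 67.7% of all genes tested were called. Nras was at 170.8, 172.4 and 174.3 CPM in the WT samples and at 98.1, 102.9 and 105.2 CPM in the Tnfaip2-/- samples. The groups were far apart, and the log2 fold change was -0.76 (adjusted p = 4.79e-26, edgeR). Mras, at 98, 114 and 110 counts in WT EBs and 59, 67 and 66 counts in Tnfaip2-/- EBs, was lower as well, by a log2 fold change of -0.71 (adjusted p = 7.5e-06, edgeR).

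Of the 5 direct effectors reported, 2 were higher, 2 lower and 1 not called, again beside 67.7% called over all genes. Plcd1, the gene of a phospholipase C, was at 15.6, 15.1 and 14.9 CPM in WT EBs and at 53.3, 53.5 and 56.3 CPM in Tnfaip2-/- EBs. This log2 fold change of 1.84 (adjusted p = 2.8e-32, edgeR) was the largest on the pathway lists, and 96% of all genes tested changed less.

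The exocyst subunits that bind Ral directly are encoded by Exoc2 (SEC5) and Exoc8 (EXO84). Exoc2 was at 38.2, 39.7 and 40.3 CPM in WT EBs and at 49.5, 50.6 and 51.3 CPM in Tnfaip2-/- EBs, separate groups whose log2 fold change was 0.36 (adjusted p = 5.28e-10, edgeR). Exoc8 was at 20, 23 and 23.2 CPM in WT EBs and at 23.6, 24.5 and 23.6 CPM in Tnfaip2-/- EBs. Its log2 fold change of 0.11 had a 95% interval from -0.01 to 0.23 and was not called (adjusted p = 0.086, edgeR).

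Flna, the gene of the actin crosslinker filamin A, was at 718, 737.6 and 694.3 CPM in the WT samples and at 523.3, 500.1 and 518.5 CPM in the Tnfaip2-/- samples. Ybx3, whose product ZONAB is a transcription regulator bound by RALA, was at 461.9, 457.4 and 452.4 CPM in WT EBs and at 359, 357.8 and 370.1 CPM in Tnfaip2-/- EBs. Both were lower in every Tnfaip2-/- sample, with log2 fold changes of -0.48 (adjusted p = 7.31e-22, edgeR) and -0.34 (adjusted p = 1.4e-16, edgeR).

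Of the 9 exocyst genes, 6 were higher, 0 lower and 3 not called, with a median log2 fold change of 0.24. Of all genes tested, 67.7% were called and 34.0% were higher, so that the number called was close to the share in general. Exoc4, the gene of SEC8, was at 68.7, 70.9 and 69.4 CPM in WT EBs and at 109.6, 105.8 and 105.9 CPM in Tnfaip2-/- EBs. Exoc6, which encodes a SEC15 subunit, was at 14.2, 14 and 14.7 CPM in WT EBs and at 22.7, 22.1 and 23.4 CPM in Tnfaip2-/- EBs. These genes had the largest changes of the list, with log2 fold changes of 0.62 (adjusted p = 4.32e-21, edgeR) and 0.67 (adjusted p = 3.53e-13, edgeR). Exoc1, Exoc3 and Exoc8 were not called, the first and second of which are named after their values were seen.

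Of the 7 regulators of Ral proteins and RalGAP, 4 were higher, 2 lower and 1 not called, and none reached a log2 fold change of 0.5. Of the 4 genes for prenylation and membrane processing, 1 was higher, 1 lower and 2 not called. Of the 11 related GAP genes and their GTPases, 5 were higher, 2 lower and 4 not called. Beside these lists, 67.7% of all genes tested were called, 34.0% higher and 33.7% lower. Rap1gap2, which encodes a GAP for Rap1, changed most among these, with 103, 92 and 104 counts in WT EBs and 168, 208 and 177 counts in Tnfaip2-/- EBs (log2 fold change 0.92, adjusted p = 3.23e-10, edgeR). Some list genes overlap exons of genes on the opposite strand, with 54.5% of exon bases for Rap2b and 22.2% for Ppp2r1b, and the library kit does not mark strand, so that their calls are uncertain.

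Many markers of cell types differed between the genotypes, although not every list moved as a whole. The part of cell types in the results above was not tested. Over all genes tested, 67.7% were called, 34.0% higher and 33.7% lower, and the counts of each marker list stand beside these shares. The most abundant gene of each list is given per length of the exon union. All 8 pluripotency genes were called, 6 higher and 2 lower, and their summed level was 1956, 1942 and 1952 CPM in the WT samples and 2036, 2043 and 2054 CPM in the Tnfaip2-/- samples. Pou5f1 was the most abundant in WT EBs and Zfp42 in Tnfaip2-/- EBs, but with the longest transcript as the length, tried after the data had been seen, Pou5f1 was first in both. Dppa3, Klf2 and Zfp42 changed most and were higher (log2 fold changes of 2.67, 0.98 and 0.90), whereas Pou5f1 was lower (-0.86).

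All 6 primitive streak and mesoderm genes were lower, with a sum of 75.3, 73.6 and 74.4 CPM in WT EBs and 21, 18.5 and 22.1 CPM in Tnfaip2-/- EBs. T was the most abundant in WT EBs and Eomes in Tnfaip2-/- EBs. T changed most, with 774, 732 and 866 counts in WT EBs but 5, 3 and 1 counts in Tnfaip2-/- EBs. Mixl1 had 174, 155 and 170 counts against 17, 4 and 15 counts, and Mesp1 had 32, 26 and 16 counts against 0, 2 and 2 counts. All 3 neural ectoderm genes were lower, and their sum was 101.7, 102.4 and 95.1 CPM in the WT samples and 46.5, 44.8 and 45.8 CPM in the Tnfaip2-/- samples. Sox1 was the most abundant in both genotypes and changed most (log2 fold change -1.61), before Pax6 (-0.82) and Nes (-0.32).

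Of the 5 endoderm genes, 1 was higher, 2 lower and 2 not called, so that 3 of 5 were called. Their sum was 18.5, 20 and 19.1 CPM in WT EBs and 16.9, 18 and 19.6 CPM in Tnfaip2-/- EBs, which overlapped, and Gata4, which was not called, was the most abundant in both. Single genes of the list did change. Afp had 21, 16 and 25 counts in WT EBs and 1, 0 and 2 counts in Tnfaip2-/- EBs, Foxa2 was lower (log2 fold change -1.16) and Sox17 was higher (0.45).

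Of the 5 fibroblast genes, 1 was higher, 2 lower and 2 not called, with a sum of 12.6, 13.3 and 12.2 CPM in WT EBs and 11.5, 11.4 and 11.9 CPM in Tnfaip2-/- EBs. Thy1 was the most abundant in both genotypes. Col3a1 had 12, 21 and 12 counts in WT EBs and 1, 1 and 0 counts in Tnfaip2-/- EBs, Col1a2 was lower (log2 fold change -1.50) and Pdgfrb was higher (0.36). Of the 4 blood cell genes only Cd68 passed the filter, and it was higher (log2 fold change 0.46) and the most abundant. Their sum was 5.6, 7.37 and 6.68 CPM in WT EBs and 7.97, 9.27 and 9.83 CPM in Tnfaip2-/- EBs. Hbb-bt was at 0 in all 6 samples, and Ptprc had 1 count in 1 Tnfaip2-/- sample and 0 in the others.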

How the data were processed

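The authors mapped the reads of 6 libraries, made with a kit that does not mark strand, to GRCm38 with TopHat2 (version 2.1.0) and counted uniquely mapped reads per gene with featureCounts (version 1.5.0). They deposited raw counts, and whether reads were counted by strand is not given in the sources used here. From these counts, genes with too few reads were removed with edgeR's filter (minimum count 10, total 15), TMM factors were computed, and Tnfaip2-/- was compared with WT with edgeR (version 4.0.16) by the quasi-likelihood test, adjusted over all genes tested. DESeq2 (version 1.42.0) was an alternative. Gene names, positions and lengths came from the GENCODE vM21 annotation, a later release than the Ensembl annotation on which the authors counted, so that levels, shares and ranks per length divide these counts by exon lengths of another release. Values are counts per 1000000 counts after TMM scaling. In a sample, 3 counts correspond to between 0.128 and 0.137 CPM on this scale. The members and lists were chosen with earlier results of these data known. All members and Tnfaip2 were named, with the direct effectors, the RalGPS genes, and other list genes with an adjusted p under 0.05 and a log2 fold change of at least 0.5 in size. Of the marker lists, the most abundant gene, genes at 0 and up to 3 genes with the largest change were named. The shares of Rgl2 and Ralgds and the sums per length were added after the data had been seen. Some genes of the pathway are not reported here.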

Additional observations from a re-analysis of the deposited data

How the results depend on the processing

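The direction of the change and the side of the threshold were the same for Rala, Ralb, Ralgds, Rgl2, Rgl3 and Ralgapa2 under all 12 alternatives: DESeq2, RLE factors, library sizes alone, no filter, a replicate block, a test against a 1.2-fold change and leaving out each of the 6 samples. The test against a 1.2-fold change lowered the number of genes called from 12084 to 6682 of the 17849 tested, since it asks for a larger change. Beside this share, it lowered the pathway genes called from 35 to 17 of 47 and called 5 of the 9 members. Leaving out a sample gave between 11537 and 11744 genes, of 18154 to 18236 tested, 6 to 7 of the 9 members and 33 to 37 of the 47 pathway genes. The log2 fold change of Rgl1 then ranged from -0.039 to 0.189, and the cause of its change of sign was not tested. Ralgapb lost its call in 4 of these 6 fits and in 4 of the 6 other settings.

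Replicate numbers are shared between the genotypes, but samples of the same number did not deviate together (correlation between -0.032 and -0.022), so that the numbers give no pairing. With the replicate block, 11841 of 17849 genes, 6 of 9 members and 35 of 47 pathway genes were called.

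The differences in the per-length shares moved by less than the SD between replicates when the longest transcript gave the length or a sample was left out. Shares per length depend on the annotation, and Rgl1 and Rgl3, with under 100 counts in each sample, are limited by depth.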
